A study of Mus musculus with 4 samples.

Results

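The cluster deposited under the name cDC2-A was one of 12 clusters that the authors made from CD11b+ splenocytes of mice. Its members were taken as all cells that carry this name in the deposited cell table. They were 234 of 11631 cells, of which 214 of 4827 cells came from the steady-state library and 20 of 6804 from the library of GM-CSF-treated mice. Contrary to the name, which stands for a subset of conventional type 2 dendritic cells (cDC2s), 213 of the 214 steady-state cells held UMIs of at least 3 of 6 marker genes of natural killer (NK) cells, and the genes of cDC2s and of MHC class II were low. The cluster is therefore called by its deposited name, cDC2-A, and described by its leading genes.

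CITE-seq counted RNA in single cells together with antibodies carrying DNA tags, and a UMI stands for 1 captured RNA molecule. The untreated mice (steady state) and the mice given 3 once-daily subcutaneous injections of 10 µg GM-CSF, with spleens taken 24 h after the last, gave 1 library each of flow-sorted CD11b+ splenocytes. Mice were 8 to 12 weeks old and C57BL/6 as far as the methods of the study name a strain, and how many spleens went into a library is not given in the sources used here. No transgene, deletion or other allele was named for either group. With 1 library for each condition no test was made, cells were not used as replicates, and an effect of GM-CSF cannot be told apart from a difference between the 2 libraries. CD11b, the antigen of the sort, is itself a protein that NK cells gain as they mature, so the sort set which cells could be seen.

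NK cells are innate lymphocytes that kill infected or transformed cells without a rearranged antigen receptor. Their response is set by the balance of activating receptors, such as NKp46 (Ncr1) and NKG2D (Klrk1), and inhibitory receptors for MHC class I, such as many members of the Ly49 family, and it is carried out by perforin and granzymes in cytotoxic granules and by IFN-γ and chemokines. In the mouse spleen, NK cells mature from a CD27+ stage to a CD11b+ CD27- stage at which many carry KLRG1, and the transcription factors Eomes, T-bet (Tbx21) and Zeb2 act along this path.

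Runx3 and the T-box factors Eomes and T-bet are transcription factors that act in NK cells, and the letters they are known to bind can be looked for before the genes that define the cluster. The RefSeq sequence (GRCm38.p6) of the 250 bases before the start of 4 such genes is printed below from 5′ to 3′ on the strand of the gene, because these genes encode a receptor and proteins of the cytotoxic granule that set the cluster apart. Capitals mark each match to the letters TGTGGT (Runx) or GGTGTGA (T-box) on either strand, and no matches overlap. Ncr1 lies at chr7:4337465-4337714 (+), Nkg7 at chr7:43436888-43437137 (+), Gzma at chr13:113100982-113101231 (-) and Prf1 at chr10:61297586-61297835 (+).
Ncr1: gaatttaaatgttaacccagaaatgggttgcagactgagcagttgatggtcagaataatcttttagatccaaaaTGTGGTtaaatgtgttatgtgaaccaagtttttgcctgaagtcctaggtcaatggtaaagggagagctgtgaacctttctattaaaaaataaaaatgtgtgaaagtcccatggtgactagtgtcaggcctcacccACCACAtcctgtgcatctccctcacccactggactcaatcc
Nkg7: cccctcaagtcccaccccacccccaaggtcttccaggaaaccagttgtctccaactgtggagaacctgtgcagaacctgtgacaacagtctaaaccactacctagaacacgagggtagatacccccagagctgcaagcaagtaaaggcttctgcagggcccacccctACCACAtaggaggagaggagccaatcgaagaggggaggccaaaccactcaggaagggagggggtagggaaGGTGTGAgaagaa
Gzma: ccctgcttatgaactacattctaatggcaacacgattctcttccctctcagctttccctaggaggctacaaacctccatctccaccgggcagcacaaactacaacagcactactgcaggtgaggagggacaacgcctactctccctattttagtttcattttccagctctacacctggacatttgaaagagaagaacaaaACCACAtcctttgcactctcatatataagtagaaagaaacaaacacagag
Prf1: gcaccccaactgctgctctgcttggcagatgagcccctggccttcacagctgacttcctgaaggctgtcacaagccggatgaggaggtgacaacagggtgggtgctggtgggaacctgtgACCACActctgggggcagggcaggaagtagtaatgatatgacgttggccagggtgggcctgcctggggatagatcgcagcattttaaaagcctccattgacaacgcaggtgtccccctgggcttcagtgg

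The Ncr1 sequence held 2 matches to the Runx letters, and each of the other 3 sequences held 1. Nkg7 also held a match to the T-box letters. Of 32851 RefSeq sequences of this length, 14.0% held the Runx letters, 1.27% held them at 2 or more places, 3.33% held the T-box letters and 0.609% held both. Among the 6 NK marker genes, 5 had a sequence of this kind, and 4 of these (Ncr1, Klrb1c, Nkg7 and Gzma) held the Runx letters. Of 21 genes of the cytotoxic granule and its release, 19 had a sequence and 9 held the Runx letters. A match describes the letters and does not show that a factor was bound.

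The cluster took 4.43% of the steady-state library (95% interval 3.87 to 5.05) and 0.294% of the GM-CSF-treated library (0.180 to 0.454). Among the T cell, B cell and cDC2-A clusters alone its share was 36.6% of 584 cells in steady state and 14.5% of 138 cells after GM-CSF. Both shares were thus lower after GM-CSF, and both were taken behind the sort on CD11b. The 214 cells held 858559 UMIs (median 3560 per cell) and the 20 cells 62728 UMIs (median 2535), so a gene without a UMI could stand at up to 3.49 and 47.8 CPM (UMIs of a gene scaled to the total of the summed cells), taking 3 counts as the limit of a count of 0. The libraries shared 8 cell barcodes, none of them in the cluster. Scrublet called 14 of the 214 cells and 1 of the 20 cells doublets. Intervals here and below are exact 95% intervals and cover counting error only.

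All 6 NK marker genes were far higher in cDC2-A than in the T cell and Progenitor DC clusters and in the pooled other cells of the steady-state library. The cluster MoMacDC_c4, described below, came nearer and was the next highest for each of the 6. In it Gzma stood at 8450.2 CPM against 12973 CPM in cDC2-A, Nkg7 at 1912 against 3120.3 CPM and Ncr1 at 425 against 777 CPM. Klrb1c stood at 287 against 777 CPM, Klrg1 at 118 against 248 CPM and Itga2 at 37.8 against 105 CPM. The summed level of the 6 markers in cDC2-A was 17999.9 CPM, against 422 CPM in T cells (42.6-fold, interval 38.1 to 47.9) and 257 CPM in all other cells (69.9-fold, 67.8 to 72.1). The median member stood 64.6-fold over T cells, where the median of all 4564 genes compared stood 1.15-fold over them, and 11.9% of these genes were at least 2-fold higher in cDC2-A and 5.04% at least 2-fold lower. All folds counted in this way add 0.5 counts to each sum and need at least 50 UMIs over both groups. Since the clusters were made from the same RNA counts, these values describe the cluster and are no test of it.

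Single cells carried the markers together. In steady state, 1 cell held UMIs of 2 of the 6 markers, 22 cells of 3, 67 cells of 4, 99 cells of 5 and 25 cells of all 6, whereas 3 of 174 T cells held 3 or more. After GM-CSF, 19 of the 20 cells held 3 or more. The summed level of the list ranged from 2265 to 41621 CPM among the 214 cells, with a median of 19201 CPM, so that every cell held some of these transcripts.

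**Figure D1:**
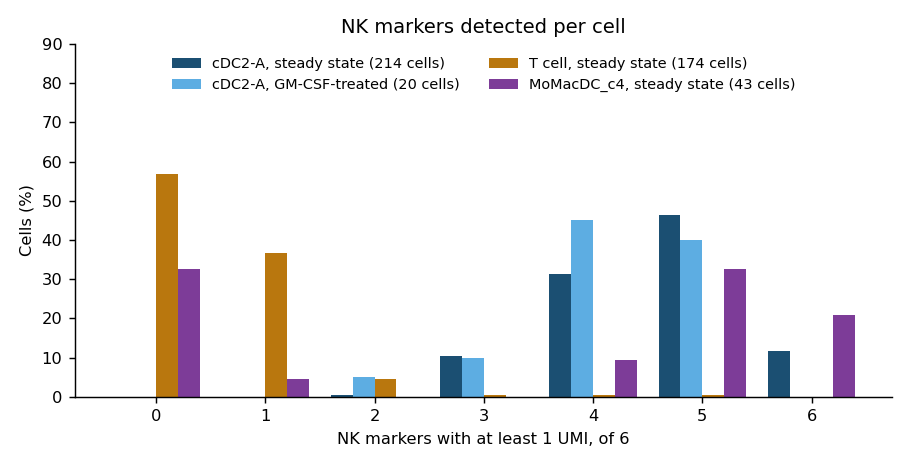
Percent of cells (y axis) by the number of the 6 NK marker genes (Ncr1, Klrb1c, Nkg7, Gzma, Klrg1, Itga2) with at least 1 UMI (x axis), as bars for cDC2-A in steady state (214 cells) and after GM-CSF (20 cells) and for the T cell (174 cells) and MoMacDC_c4 (43 cells) clusters in steady state. Nearly all cDC2-A cells lie at 3 or more markers, nearly all T cells lie below 3, and MoMacDC_c4 splits, with 27 of its 43 cells at 3 or more.

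Gzma, which encodes the granule protease granzyme A (chromosome 13, 113093825 to 113100981, GRCm38), stood at 12973 CPM with a UMI in 98.1% of the steady-state cells, against 52.3 CPM in T cells. Nkg7, a protein of the cytotoxic granule membrane, was detected in 100% of the cells at 3120.3 CPM, 9.07-fold over T cells (7.97 to 10.4). Ncr1 stood at 777 CPM and was found in 92.5% of the cells, against 9.63 CPM and 1.15% of T cells. Klrb1c, which encodes NK1.1, also stood at 777 CPM and was found in 85.5% of the cells. These genes were therefore both high in the sum and present cell by cell. Klrg1, an inhibitory receptor of late NK cells, had 213 UMIs in 52.3% of the cells and none in the 174 T cells (at least 60.1-fold higher). Itga2, the integrin CD49b, had 90 UMIs in 29.9% of the cells and 2 in T cells. As a measure of free RNA in the droplets, Gzma was found in 0.829% of granulocytes and 1.97% of Progenitor DC cells, and none of the 6 marker genes was found in over 5% of the cells of a cluster other than cDC2-A, MoMacDC_c4 and T cell, except for Nkg7 in 6.16% of neutrophils.

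Genes of the cell type in the name were close to absent. The 9 cDC2 genes, among them Clec4a4 (DCIR2), Flt3 and Zbtb46, summed to 61.7 CPM, against 1166 CPM in Progenitor DC, and the 8 of them with enough UMIs were all at least 2-fold lower, beside 14.7% of the 5611 genes compared with that cluster and 12.2% at least 2-fold higher. Clec4a4 had no UMI in the 214 cells, and Flt3, Esam, Cd209a and Clec10a had 1 each. MHC class II genes, which present antigen to CD4+ T cells, summed to 269 CPM against 28711 CPM, 107-fold lower (93.8 to 122). Cd74, the invariant chain, stood at 101 CPM against 11016 CPM. No dendritic cell list was high in the cluster, as the cDC1 genes summed to 4.66 CPM and the plasmacytoid DC genes to 82.7 CPM.

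Genes of T cells were low as well. The 12 T cell genes found in the table summed to 157 CPM, 26.3-fold lower than in T cells (22.1 to 31.5), and all 12 were at least 2-fold lower. Cd3e, Cd4, Cd8a, Cd8b1, Cd6 and Themis had no UMI in the 214 cells, and Cd3d had 11 UMIs against 522 in T cells. Of the 135 UMIs of this list in the cluster, 80 were of the costimulatory receptor Cd28 and 32 of the transcription factor Lef1. B cell genes summed to 15.1 CPM and macrophage genes to 9.32 CPM, and genes of basophils and mast cells, erythroid cells and platelets had no UMI. In sum, neutrophil genes (1315 CPM, against 2709 in T cells and 39669 in all other cells) and monocyte genes (1206 CPM, against 1219 in T cells) were no higher than in T cells. Members of the monocyte list differed, as Ccr2 (409 CPM) was higher than in T cells, as given below, and Lyz2 was lower (651 against 995 CPM). S100a8, a neutrophil gene, had a UMI in 28.5% of cDC2-A cells and in 35.6% of T cells.

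The 12 genes that mark type 1 innate lymphoid cells, tissue-resident relatives of NK cells, were low in sum beside T cells. They summed to 157 CPM against 968 CPM in T cells, and the 4 members with enough UMIs were all at least 2-fold lower. T cells carry these 4 genes (Il7r, Cxcr6, Cd69 and Il21r), so being lower than T cells says little about such lymphoid cells. Against all other cells Cd69 was 3.03-fold higher (2.40 to 3.79), and the other members are not reported here. Il7r, the IL-7 receptor, had 2 UMIs against 294 in T cells, Cxcr6 had 2 against 66, and Itga1 (CD49a) had 1. Zfp683 (Hobit) was not detected. Eomes, which splenic NK cells carry, was found in 71.5% of the cells.

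The transcription factors of NK cells separated into genes high in cDC2-A and genes high in T cells. Of 21 such genes, 18 could be compared with T cells, and 9 were at least 2-fold higher and 4 at least 2-fold lower, with a median fold of 2.01. Over all 4564 genes compared with T cells, 11.9% were higher and 5.04% lower. Eomes stood at 399.5 CPM against 46.8 CPM in T cells (8.54-fold, 6.0 to 12.5). Tbx21 stood at 386 CPM against 22.0 CPM (17.5-fold, 10.6 to 31.0). Zeb2, which acts in terminal maturation, stood at 956 CPM (15.4-fold, 11.4 to 21.3), and Prdm1 (Blimp-1) at 111 CPM (20.1-fold, 7.60 to 75.3). All 4 are genes that act in NK maturation and all were higher than in T cells. Irf8 reached 1568 CPM with a UMI in 93.0% of the cells, against 19.3 CPM in T cells and 29.9 CPM in Progenitor DC. Id2, an inhibitor of E proteins needed by innate lymphocytes, stood at 1383 CPM, 6.32-fold over T cells.

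Ikzf3, Stat4 and Bhlhe40 completed the 9 higher genes, at 3.24-, 2.05- and 8.30-fold. The 4 lower genes were Tcf7 (60.6 against 707 CPM), Ikzf2 (25.6 against 171 CPM), Foxo1 (80.4 against 261 CPM) and Bach2 (55.9 against 154 CPM). Tcf7 encodes TCF-1, a factor of naive T cells and of early NK cells. Runx3 stood at 305 CPM against 154 CPM (1.98-fold, 1.58 to 2.49), just under the 2-fold limit, and Gata3 at 108 CPM against 107 CPM.

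Against T cells, genes of late NK maturation were high and most genes of the early stage were low, while against all other cells most early genes were higher. Of 12 late genes, 11 were at least 2-fold higher than in T cells (median fold 16.6) and none was lower. Of 10 early genes with enough UMIs, 6 were at least 2-fold lower and 3 at least 2-fold higher (median fold 0.182). Beside both lists, 11.9% of all 4564 genes compared with T cells were higher and 5.04% lower. Apart from Gzma, Klrg1, Zeb2 and Prdm1, given above, the late list held Gzmb, which encodes granzyme B and stood at 819 CPM with 703 UMIs against 1 UMI in T cells (595-fold, 106 to 23543). Cma1, a protease of the chymase family, stood at 492 CPM and had no UMI in T cells (at least 119-fold higher), and Serpinb9b stood at 74.5 CPM with none in T cells either. Itgam, which encodes CD11b, stood at 508 CPM (11.5-fold) and was found in 79.4% of the cells, which had been sorted on this protein. S1pr5, a sphingosine-1-phosphate receptor by which NK cells leave lymphoid tissue, stood at 189 CPM (15.2-fold), Cx3cr1 at 164 CPM (4.26-fold) and Spn (CD43) at 624 CPM (2.69-fold). Ly6c2 was the late gene under the limit, at 446 CPM against 290.3 CPM in T cells. Several late genes were higher in another cluster of the library than in cDC2-A. These were Cx3cr1 (547 CPM), Spn (913 CPM) and S1pr5 (215 CPM) in MoMacDC_c5 and Ly6c2 (1135 CPM) in MoMacDC_c1. Itgam (745 CPM in Neutrophil), Zeb2 (1220.4 CPM in Activated DC) and Serpinb9b (95.7 CPM in MoMacDC_c4) were so too. Gzma, Klrg1, Gzmb, Cma1 and Prdm1 were highest in cDC2-A.

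Among the early genes, Cd27 stood at 47.8 CPM against 252 CPM in T cells, Ltb (lymphotoxin β) at 61.7 against 813 CPM, Thy1 at 104 against 601 CPM and Emb at 32.6 against 235 CPM. Xcl1, a chemokine that attracts cDC1s, was higher than in T cells at 592 CPM (19.6-fold, 12.8 to 31.5), as were Ctla2a (2.13-fold) and Cd7 (2.43-fold). The early list shares many genes with naive T cells, so T cells are a strict comparison for it. Against all other cells of the library, 8 of 12 early genes were at least 2-fold higher in cDC2-A and 3 at least 2-fold lower, beside 14.5% and 20.1% of the 10291 genes compared.

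Klrg1 and Cd27 were each detected in a part of the cluster, and cells with both were about as frequent as the shares of each would give. In steady state 112 of 214 cells (52.3%, 45.4 to 59.2) held a Klrg1 UMI, 31 cells (14.5%, 10.1 to 19.9) a Cd27 UMI and 12 cells (5.61%, 2.93 to 9.59) both, where the product of the shares would give 7.58%. Another 83 cells (38.8%) held neither, and since the shares depend on depth they were also taken after thinning each cell to 1000 UMIs, which left 14.6% with Klrg1, 3.77% with Cd27 and 0.472% with both among 212 cells. None of 174 T cells held a Klrg1 UMI (upper limit 2.10%), and 59.2% held a Cd27 UMI. After GM-CSF 8 of 20 cells (40.0%) held Klrg1 and 1 cell held Cd27. Thinned to the same depth, the shares with Klrg1 were 30.0% after GM-CSF (11.9 to 54.3) and 14.6% in steady state (10.2 to 20.1), so no order of the libraries can be read from this gene.

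Some other genes of the maturation lists differed between steady-state cells with and without these transcripts. In the 31 cells with a Cd27 UMI, Xcl1 stood at 1278 CPM against 441 CPM in the other 183 cells (2.90-fold, 2.41 to 3.47). Of its 197 UMIs in the 31 cells, 179 lay in the 19 cells with Cd27 and no Klrg1 (1970.3 CPM). The 12 cells with both stood at 285 CPM, under the 609 CPM of cells with neither. After thinning, 42.2% of the Xcl1 UMIs of the cluster lay in 5 cells, a spread that its counting interval does not cover. Thy1 was 2.32-fold (1.45 to 3.67), Cd7 2.05-fold and Ctla2a 1.92-fold as high in the cells with Cd27. Ltb was 1.98-fold as high (1.03 to 3.64), and the early genes Cd160 (1.85), Tcf7 (1.85), Emb (2.17) and Kit (1.83) had intervals that span 1. Ly6c2 stood at 136 CPM in the cells with Cd27 against 514 CPM (ratio 0.265, 0.162 to 0.412), Cx3cr1 at a ratio of 0.239 (0.0942 to 0.506), Cma1 at 0.505 and Itgam at 0.674 (0.499 to 0.894). The chemokines Ccl3 (0.362) and Ccl4 (0.514) were also lower in cells with Cd27. Klrg1 itself stood at a ratio of 0.868 (0.583 to 1.26), and its interval spans 1, as did those of the late genes Gzmb (1.03), S1pr5 (0.834), Prdm1 (0.725) and Serpinb9b (0.473) and of Ncr1 (1.04), Klrk1 (1.06) and Tbx21 (0.891). The cells with a Cd27 UMI were deeper, with a median of 4797 UMIs against 3436.

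Between cells with and without a Klrg1 UMI, which were of like depth (median 3624 against 3542 UMIs), several of these genes lay on the other side of 1. Ly6c2 was 2.26-fold as high in them (1.80 to 2.85), Cma1 2.23-fold (1.79 to 2.78), Cx3cr1 2.11-fold (1.45 to 3.11), Itgam 1.66-fold and Spn 1.52-fold. Gzma (1.36-fold) and Ccl5 (1.46-fold) differed less. Xcl1 stood at 308 CPM with Klrg1 against 919.6 CPM without it (ratio 0.335, 0.274 to 0.408), Thy1 at a ratio of 0.560 and Cd7 at 0.592. Among the cells without Klrg1, Xcl1 stood at 1970.3 CPM in those with Cd27 and at 609 CPM in the others. The late genes Gzmb (1.09, 0.936 to 1.27), Prdm1 (1.05) and Serpinb9b (1.54, 0.903 to 2.69) and the early genes Ltb (0.567, 0.311 to 1.01), Tcf7 (0.585), Cd160 (0.741), Emb (0.749) and Kit (0.648) had intervals that span 1. Cells of 1 library are not replicates, and these ratios carry no test.

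**Figure D2:**
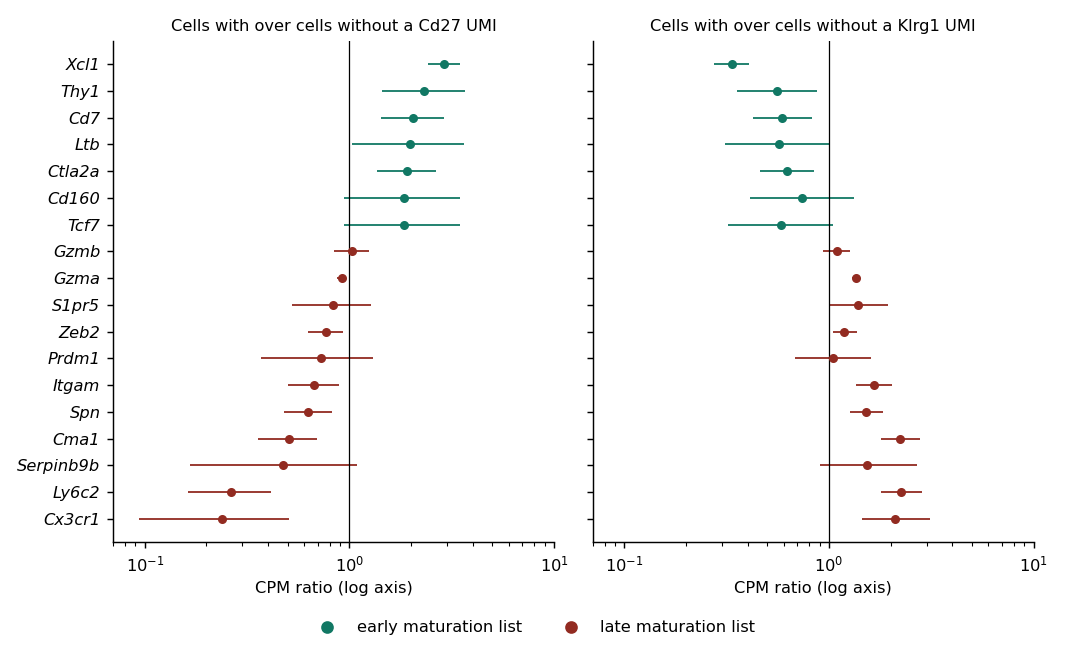
Ratio of CPM (x axis, log scale) of early and late maturation genes (y axis) between steady-state cDC2-A cells with and without a Cd27 UMI on the left and with and without a Klrg1 UMI on the right, with exact 95% counting intervals as lines. Xcl1 and Thy1 lie above 1 on the left and below 1 on the right, while Ly6c2, Cx3cr1 and Cma1 lie on the opposite sides. The intervals do not cover spread among cells, which was wide for Xcl1.

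Receptor genes of the NK gene complex on chromosome 6 made up a large part of the identity of the cluster. All 23 genes of the Klra, Klrb1, Klrc, Klrd, Klre, Klri and Klrk families between Klrb1a (start 128609227) and Klra2 (end 131247362, GRCm38), a span of 2.64 Mb, had at least 1 UMI in the steady-state cells. Their summed level was 8936 CPM, against 360.4 CPM in T cells and 362 CPM in all other cells, and it was 8497 CPM after GM-CSF. Klra, Klrb1 and Klrc genes have near-identical copies, and how reads were divided among the members of a family is uncertain, so the summed level is firmer than that of a single member.

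Of 14 activating receptor genes with enough UMIs, 11 were at least 2-fold higher than in T cells and 1 at least 2-fold lower (median fold 21.3). For all 4564 genes compared, these shares were 11.9% and 5.04%. Klrk1, which encodes NKG2D, the receptor for stress-induced ligands, stood at 856 CPM in 93.5% of the cells, 23.0-fold over T cells (15.7 to 35.2). Klra4 (Ly49D) stood at 1124 CPM in 53.7% and Klra8 (Ly49H, which binds a protein of mouse cytomegalovirus) at 764 CPM in 57.0% of the cells, with 1 and 2 UMIs in T cells. Klrc2 stood at 532 CPM (20.4-fold), Cd244 (2B4) at 277 CPM (9.60-fold) and Slamf7 at 172 CPM (13.9-fold). These receptors were detected in a large share of the cells, while Fcgr3, the Fc receptor of antibody-dependent killing, stood at 60.6 CPM (2.20-fold) and was found in 18.2%. Slamf6, the gene that was lower, had 1 UMI against 105 in T cells. Cd226 (DNAM-1) had 26 UMIs in 9.35% of the cells.

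Of 10 inhibitory receptor genes with enough UMIs, 7 were at least 2-fold higher than in T cells and none was lower (median fold 19.4). Among all 4564 genes compared, 11.9% were higher and 5.04% lower. Klra9 stood at 565 CPM in 57.9% of the cells, Klra7 (Ly49G) at 516 CPM in 57.5%, Klra3 (Ly49C) at 257 CPM in 36.4% and Klra1 (Ly49A) at 172 CPM in 13.6%. Klrc1, which encodes NKG2A, the inhibitory partner of CD94, stood at 220.1 CPM in 39.3% of the cells, 40.0-fold over T cells (15.4 to 148). Klrd1, which encodes CD94 itself, stood at 1102 CPM (8.43-fold) and Klre1 at 1083 CPM (31.5-fold), and each was found in over 93% of the cells. Receptors known from exhausted T cells were at or near 0, with no UMI of Pdcd1, 2 of Tigit, 3 of Lag3 and 4 of Havcr2 in the 214 cells.

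The Ly49 genes were distributed over the cells in different combinations, as is known of this family. Of the 7 Ly49 genes Klra1, Klra3, Klra4, Klra5, Klra7, Klra8 and Klra9, no gene was detected in 12 steady-state cells, 1 gene in 18, 2 in 57, 3 in 58, 4 in 53 and 5 in 16, and no cell held more. Klra8 and Klra9 were found together in 82 cells, where the product of their shares gives 70.7, and Klra4 and Klra7 in 79 cells, where it gives 66.1. Klra4 and Klrc1 were found together in 27 cells (12.6%, 8.48 to 17.8), where the product gives 45.1 cells (21.1%). Of the 36 pairs of these genes with Klrc1 and Klrg1, this was the pair furthest under the product in cells. Depth and reads shared between family members touch all pairs, and their part was not tested. After GM-CSF the 20 cells fell in the same range, with 0 to 5 Ly49 genes per cell.

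**Figure D3:**
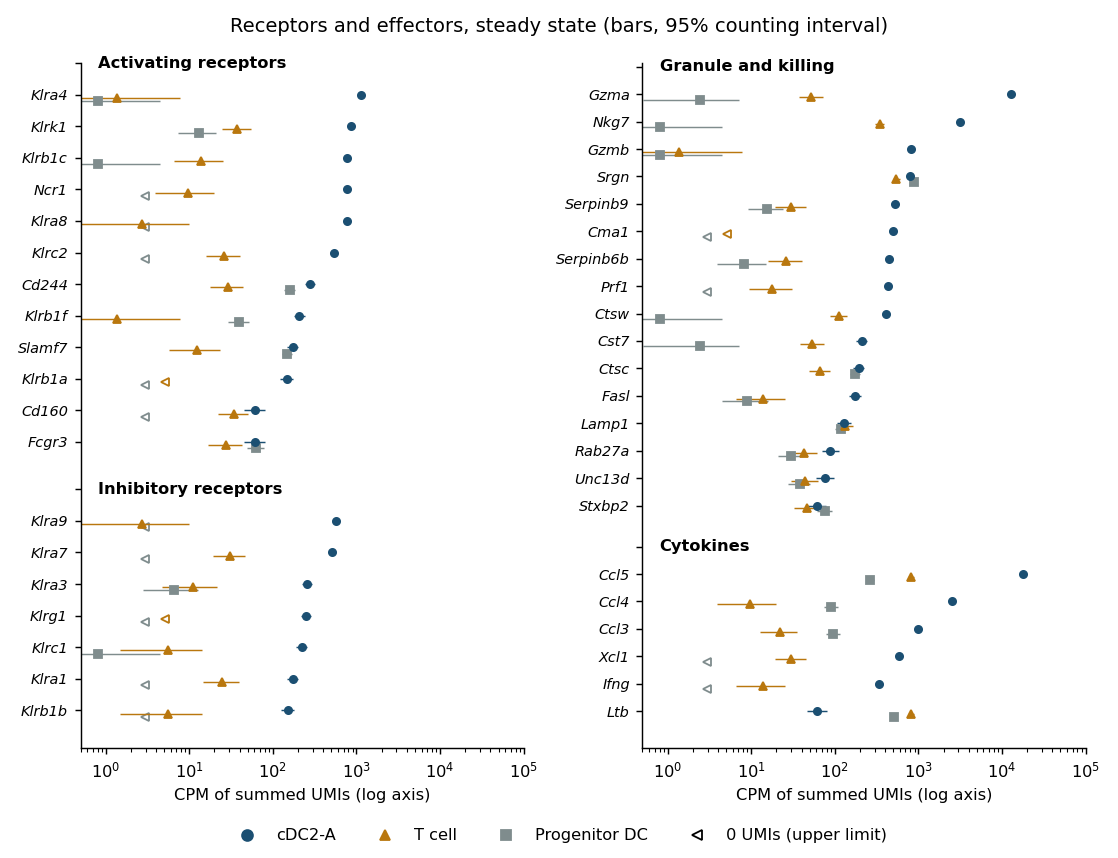
CPM (x axis, log scale) of receptor, granule and cytokine genes with at least 50 UMIs in the cluster (y axis) in cDC2-A, T cell and Progenitor DC cells of the steady-state library, with exact 95% counting intervals as lines and an open left-pointing triangle at the upper limit where a cluster had no UMI. The cDC2-A points lie to the right of the T cell points for the receptors, Gzma, Gzmb, Prf1, Ccl3, Ccl4 and Ccl5, overlap them for Lamp1 and lie to their left for Ltb.

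Among adaptors and signalling genes, Tyrobp and Fcer1g were far higher than in T cells and 9 of the 19 genes compared lay within the 2-fold limit. Of the 19, 8 were at least 2-fold higher and 2 at least 2-fold lower (median fold 1.36). The shares over all 4564 genes compared with T cells were 11.9% and 5.04%. Tyrobp, which encodes DAP12, the adaptor of Ly49D and Ly49H, stood at 2581 CPM (6.28-fold) and Fcer1g, the Fc receptor γ chain, at 2064 CPM (7.35-fold, UMI in 100% of the cells). Lat2 (25.1-fold), Syk (10.8-fold), Plcg2 (5.75-fold), Sh2d2a (3.51-fold), Inpp5d (2.58-fold) and Fyn (2.01-fold) were the other higher genes. The lower genes included Lat (38.4 against 242 CPM), which acts below the T cell receptor. Hcst (DAP10), the adaptor of NKG2D, stood at 432 CPM against 318 CPM, Sh2d1a (SAP) at 162 against 102 CPM, and Cd247 (CD3ζ), which serves NKp46 as well as the T cell receptor, at 157 against 217 CPM. Zap70 stood at 89.7 against 75.7 CPM and Lck at 365 against 398 CPM.

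Cytotoxic genes were among the highest in the cluster relative to T cells. Of 16 genes of the granule and of killing, 12 were at least 2-fold higher and none lower, with a median fold of 6.47 and a summed level of 21014 CPM against 1575 CPM (13.3-fold, 12.6 to 14.2). Among all 4564 genes compared with T cells, 11.9% were higher and 5.04% lower. Prf1, which encodes perforin, stood at 438 CPM in 72.4% of the cells, 24.5-fold over T cells (14.1 to 46.4). Serpinb9 and Serpinb6b, which encode inhibitors of granule proteases, stood at 523 and 449.6 CPM (17.3- and 17.2-fold). Fasl, the ligand of the death receptor Fas, stood at 175 CPM (12.7-fold). Ctsw (3.70-fold), Cst7 (3.93-fold), Ctsc (2.93-fold) and Rab27a (2.08-fold), which act in the processing and release of granule contents, were higher too. Granzymes were not all present, as Gzmk had 3 UMIs, Gzmc 1 and Gzmm 13 in the 214 cells, against 11138 of Gzma and 703 of Gzmb. Tnfsf10 (TRAIL), a feature of immature NK cells, had 3 UMIs.

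The chemokine genes Ccl5, Ccl4, Ccl3 and Xcl1 and the cytokine gene Ifng were at least 2-fold higher than in T cells, and Ltb, given above, was lower. Ccl5 stood at 17936 CPM in 99.5% of the cells, 22.0-fold over T cells. Ccl4 stood at 2545 CPM against 9.63 CPM (264-fold, 128 to 658) and Ccl3 at 1001 CPM against 22.0 CPM (45.5-fold). Ifng stood at 340.1 CPM in 44.4% of the cells, 24.7-fold over T cells (13.3 to 52.1). The summed level of the list ranged from 1089 to 136543 CPM among single cells with a median of 20990.4 CPM, a wider range than that of the NK markers. Csf2, which encodes GM-CSF itself, had 10 UMIs in 2.80% of the cells, and Tnf had 7.

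Receptors for the cytokines that activate NK cells were high. Il18rap stood at 698 CPM (18.1-fold over T cells), Il18r1 at 281 CPM (6.58-fold) and Il12rb2 at 79.2 CPM with 68 UMIs against 1 (57.6-fold, 9.99 to 2307). Il2rb, which is shared by the receptors of IL-2 and IL-15, stood at 602 CPM in 85.0% of the cells (5.27-fold), whereas Il2ra had 1 UMI. Of 16 cytokine receptor genes compared, 6 were at least 2-fold higher (Il10ra and Ifngr1 besides those named) and 3 at least 2-fold lower (Il7r, Il21r and Il4ra), with a median fold of 1.20. Over all 4564 genes compared with T cells, the shares were 11.9% and 5.04%.

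Of the genes of homing and adhesion, integrins of blood lymphocytes and receptors of inflammatory chemokines were high, and receptors that lead T cells through lymph nodes were low. Of 24 genes compared with T cells, 12 were at least 2-fold higher and 5 at least 2-fold lower (median fold 2.07). The shares over all 4564 genes compared were 11.9% and 5.04%. Itga4 stood at 1267 CPM (3.84-fold), Itgal (CD11a) at 888 CPM (2.49-fold), Itgb2 at 747 CPM (3.37-fold) and Itgb1 at 509 CPM (4.35-fold). The chemokine receptors Ccr2 (409 CPM, 9.29-fold) and Cmklr1 (80.4 CPM, 58.4-fold, 10.1 to 2341) were higher as well. Ccr7 had no UMI against 267 in T cells (at least 105-fold lower), and S1pr1, the sphingosine-1-phosphate receptor of T cells, stood at 16.3 CPM against 354 CPM, 21.7-fold lower, the opposite of S1pr5. Gpr183 (2 UMIs against 93), Cxcr6 and Cd69 (102 against 279 CPM) were the other lower genes. Itgax, which encodes CD11c and is widely used as a dendritic cell marker, was found in 49.1% of the cells at 221 CPM, against 16.5 CPM in T cells and 411 CPM in Progenitor DC.

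The receptor of GM-CSF was barely detected. Csf2ra stood at 23.3 CPM and Csf2rb at 16.3 CPM in the steady-state cells, against 155 and 165 CPM in Progenitor DC. Neither had a UMI in the 20 cells after GM-CSF, where the floor of 47.8 CPM lay above both steady-state levels. The absence of UMIs there thus says nothing of a change. Of the 12 genes of this receptor and of STAT5 signalling below it, 5 could be compared with T cells and none passed 2-fold in either direction (median fold 0.746, summed level 719.8 against 649 CPM).

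Surface tags, which were not used to make the clusters, gave a separate readout. The median CD11c tag count per cell in steady state was 25 in cDC2-A (5th to 95th percentile 3 to 90), 1 in T cells and 382 in Progenitor DC. All 214 cells lay below the 5th percentile of Progenitor DC (199), and 189 lay above the 95th percentile of T cells (6). The CD11c tag was therefore between those of the other 2 clusters, and within cDC2-A it was higher in the 105 cells with an Itgax UMI (median 39) than in the 109 cells without (median 16). The MHC II tag had a median of 14 in cDC2-A, 12 in T cells and 1028 in Progenitor DC. The Ly6C tag had a median of 29 (15 to 197) in cDC2-A, 42 (16 to 541) in T cells and 34 in Progenitor DC. Its median was thus lower than in T cells, while the Ly6c2 transcript, given above, was higher. Within cDC2-A it was 65 in the 81 cells with a Ly6c2 UMI and 24 in the other 133. The tags of CD115 and CD301b, which mark monocytes and a subset of cDC2s, had medians of 0.

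The Ly6C tag had a median of 32 in cells with a Klrg1 UMI and 26 in cells without, with upper quartiles of 79 and 43. Cells with a Cd27 UMI had a median of 27 and an upper quartile of 36, against 29 and 64 in the others. In steady state the tag and the transcript of Ly6C thus lay on the same side of both splits in the upper quartile. The Klrg1 split of the tag lay the other way after GM-CSF, with a median of 15 and an upper quartile of 17.5 in 8 cells with Klrg1. The 12 cells without it had 24.5 and 54.5. After GM-CSF the CD11c tag had a median of 28.5 in the 20 cells, 5 in T cells and 372 in Progenitor DC, and 19 of the 20 cells lay below the 5th percentile of Progenitor DC (168) and 15 above the 95th percentile of T cells (12.2). Tag counts of the 2 libraries were not set against each other.

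**Figure D4:**
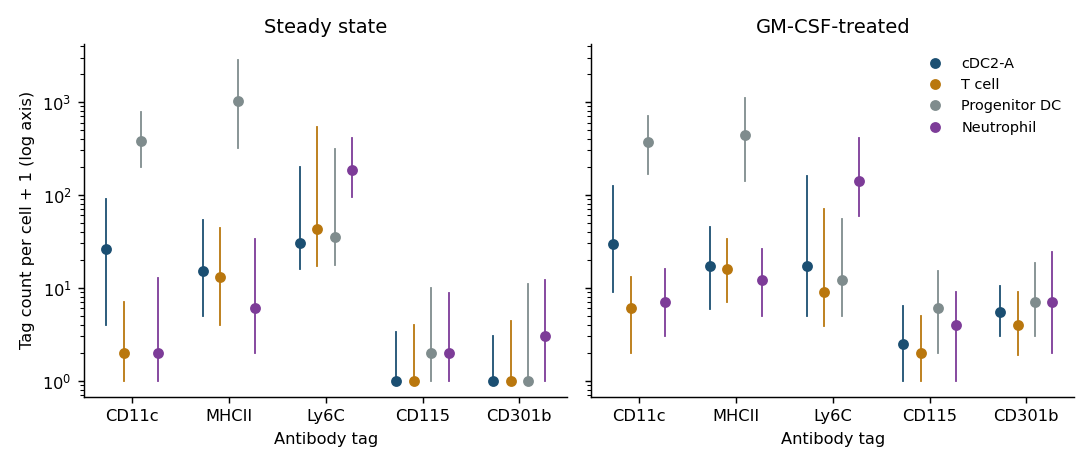
Tag count per cell plus 1 (y axis, log scale) for the 5 surface tags (x axis) in the cDC2-A, T cell, Progenitor DC and Neutrophil clusters (colours) of the steady-state library on the left and the GM-CSF-treated one on the right, with the median as a dot and the 5th to 95th percentile as a line. For CD11c, cDC2-A lies between T cell and Progenitor DC, and for MHC II it lies with T cell, far below Progenitor DC.

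The 15 genes with the highest ratio of cDC2-A to the highest of the other 11 clusters of the steady-state library, each with at least 50 UMIs, were Myo6 (9.31-fold, 3.76 to 29.8), Klrc1 (7.61-fold), Styk1 (6.61-fold), Il18r1 (4.67-fold), Klrb1b (4.22-fold), Ifng (4.13-fold), Klrb1a (3.85-fold), Camk2n1 (3.78-fold), Ccl5 (3.61-fold), Klra1 (3.37-fold), Ctla2b (3.25-fold, 1.08 to 16.1), Il12rb2 (3.24-fold), Xcl1 (3.17-fold), Prf1 (3.12-fold) and Spry2 (3.04-fold). Myo6 encodes an unconventional myosin, and Styk1 (NOK) a kinase-like protein encoded beside the NK gene complex on chromosome 6 (131299142 to 131353597). For 12 of the 15 the highest other cluster was MoMacDC_c4, for Ccl5 it was Activated DC, where Ccl5 stood at 4967 CPM, for Myo6 it was T cell and for Ctla2b it was Macrophage. For those 12 genes the ratio thus understates how far they set the cluster apart from clusters other than MoMacDC_c4.

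MoMacDC_c4 held cells with the same markers and with transcripts of the cell cycle. In steady state 27 of its 43 cells held at least 3 of the 6 NK markers, while none of its 595 cells after GM-CSF did. All 27 held a UMI of Mki67 or Top2a, genes of proliferating cells, and 25 held both, against 23 of 214 cells of cDC2-A (10.7%, 6.94 to 15.7) with either and 3 with both, and 2 of 174 T cells with either. The 27 cells were deeper, with a median of 9133 UMIs, and such transcripts were common in MoMacDC_c4 at large, as 14 of its other 16 cells and 583 of 595 after GM-CSF also held Mki67 or Top2a. The 10 cell-cycle genes were 31.0-fold over cDC2-A in sum (27.1 to 35.6), and 9 of 9 compared were at least 2-fold higher (median fold 106), beside 7.57% of 3714 genes compared and 6.46% at least 2-fold lower.

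The 6 NK markers, by which the 27 cells were chosen, summed to 1.06-fold of cDC2-A. Genes the choice did not use were near the level of cDC2-A too, as Klrd1 (976 against 1102 CPM), Gzmb (707 against 819 CPM), Klra4 (1263 against 1124 CPM) and Cma1 (424 against 492 CPM) lay within the 2-fold limit. Lower genes included Ccl5 (6886 against 17936 CPM, ratio 0.384), Ifng (ratio 0.411, 0.284 to 0.580), Klrc1 (0.223) and Il18r1 (0.364). Klrg1 was found in 20 of the 27 cells. In these 27 cells the monocyte genes took a median of 0.0258% of UMIs, against 0.783% in the other 16 cells of MoMacDC_c4 and 0.0367% in cDC2-A. Their median CD11c tag count was 54, against 6.5 in the other 16 cells, and Scrublet called none of them a doublet. If all cells with at least 3 markers are counted, whatever their cluster, they were 244 of 4827 cells (5.05%) in steady state and 20 after GM-CSF, of which 50 and 3 held Mki67 or Top2a.

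Within the steady-state cells, a few transcripts varied far more than the rest. After thinning 212 cells to 1000 UMIs, the ratio of variance to mean was 21.3 for Ccl4, with 31.1% of its UMIs in 5 cells, where the median of 595 genes was 1.09. Xcl1 had a ratio of 6.0, with a UMI in 18.4% of the thinned cells and 42.2% of its UMIs in 5 cells, and Ccl3 a ratio of 5.54. The genes of early and rapid cytokine release were thus unevenly shared, while Ccl5 (5.87), Gzma (3.20) and Klra4 (2.83) varied among cells that were mostly positive for the first 2 of them. S100a9 (10.2), Lyz2 (9.65) and S100a8 (9.62), genes of neutrophils and monocytes, had 62.6 to 76.4% of their UMIs in 5 cells. Gm42418 (8.42) and Malat1 (6.56), both non-coding, were detected in every cell, and Junb, Tmsb4x, Actb and S100a6 lay between 2.10 and 2.90.

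In the 20 cells after GM-CSF most NK genes stood near their steady-state level. Relative to steady state, of 3067 genes compared, 3.52% were at least 2-fold higher and 13.5% at least 2-fold lower, and 1.96% and 5.02% were so with a counting interval clear of 1. The 6 NK markers summed to 1.05-fold (0.985 to 1.11), and none was at least 2-fold higher. Gzma stood at 12961 CPM against 12973 CPM, Nkg7 at 3730.4 against 3120.3 CPM (1.20-fold) and Ncr1 at 1116 against 777 CPM (1.44-fold, 1.11 to 1.84). Itga2 was lower, with 1 UMI against 90 (ratio 0.152, 0.00381 to 0.869). Of 12 activating and 7 inhibitory receptor genes compared, none passed 2-fold, with sums at 1.05-fold (0.940 to 1.16) and 0.934-fold (0.779 to 1.11). Of 16 granule genes, 2 were at least 2-fold lower (Serpinb9, ratio 0.457, and Unc13d with no UMI against 66), and the sum stood at 0.976-fold (0.922 to 1.03).

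Several transcription factors were lower in these 20 cells than in steady state. Of 16 compared, 5 were at least 2-fold lower and none higher (median fold 0.620, beside 0.926 over all genes), and the sum stood at 0.681-fold (0.611 to 0.758), against 0.872-fold (0.779 to 0.975) for the same list in T cells. The intervals of 3 of the 5 lay clear of 1. Irf8 stood at 669.6 CPM against 1568 CPM (ratio 0.427, 0.306 to 0.580), Zeb2 at 430.4 against 956 CPM (0.450, 0.295 to 0.660) and Bhlhe40 at 95.7 against 354 CPM (0.270, 0.0984 to 0.595). Gata3 (0.294) and Foxo1 (0.397) had intervals that reach past 1. Eomes (0.838, 0.512 to 1.30) and Tbx21 (0.620, 0.343 to 1.04) had intervals that span 1. T cells held too few UMIs of Irf8 to be set beside these values, and in them Zeb2 stood at 0.831-fold and Bhlhe40 at 0.483-fold.

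Beside 13.5% of all genes compared that were at least 2-fold lower, 2 of 12 late maturation genes and 4 of 20 homing genes were so, which is near that share for the late genes. Of the late genes, Cx3cr1 (1 UMI against 141, ratio 0.0971, 0.00244 to 0.550) and Zeb2 were at least 2-fold lower, and 1 of 7 early genes, Ctla2a, was at least 2-fold higher (510.1 against 217 CPM, 2.35-fold, 1.57 to 3.44). Itgam stood at 0.565-fold (0.332 to 0.904), Ly6c2 at 0.536-fold and S1pr5 at 0.591-fold (0.234 to 1.25). The 4 homing genes were Itgb7 (4 UMIs against 215, ratio 0.255, 0.0688 to 0.662), Cd69 (no UMI against 88, at least 2.14-fold lower), Cx3cr1 and Itga2, and Cxcr4 passed 2-fold upward only with the added counts (1.96-fold without them, 0.747 to 4.34). The homing list summed to 0.786-fold in cDC2-A and 0.801-fold in T cells. Ifng stood at 0.516-fold (0.255 to 0.936), with UMIs in 4 of 20 cells, while Ccl4 stood at 1.25-fold and Ccl5 at 0.820-fold.

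Genes of immediate early response and stress were lower after GM-CSF in cDC2-A and in T cells alike. In cDC2-A 7 of 11 were at least 2-fold lower, with a sum at 0.529-fold (0.431 to 0.643), and in T cells 5 of 9, with a sum at 0.543-fold (0.461 to 0.636), beside 10.0% of the 2349 genes compared in T cells that were lower and 1.83% that were higher. Fos stood at 0.0950-fold in cDC2-A and 0.215-fold in T cells, and Nr4a1 at 0.117- and 0.0947-fold. Interferon-response genes summed to 0.249-fold in cDC2-A (0.107 to 0.496, 8 UMIs) and 0.711-fold in T cells. Both clusters come from the same 2 libraries, so a shift of the whole library and a change of the cells cannot be told apart.

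The 10 highest ratios of the GM-CSF-treated cells were led by neutrophil genes, namely Camp (226-fold, 84.2 to 853), Ngp (105-fold), Retnlg (43.7-fold), Lcn2 (26.2-fold), S100a9 (11.9-fold) and S100a8 (10.2-fold). For each of them 97.0 to 100% of the UMIs lay in 1 cell, in which neutrophil genes took 20.9% of 5320 UMIs, against at most 0.183% in the other 19 cells. This cell held 4 of the 6 NK markers and was called a doublet by Scrublet. Without it, neutrophil genes summed to 557 CPM, under the 1315 CPM of steady state, 3.77% of 3051 genes were at least 2-fold higher and 14.6% lower (1.87 and 5.08% with an interval clear of 1), and the NK markers stood at 1.08-fold (1.01 to 1.14). The transcription factor list then stood at 0.711-fold (0.636 to 0.793). S100a8 and S100a9 then stood at 9 and 12 UMIs and below their steady-state level, Retnlg and Lcn2 had no UMI, and Camp and Ngp had 2 and 1. The direction of S100a8, S100a9, Retnlg and Lcn2 thus rested on that cell, while Camp (7.48-fold, 0.676 to 52.2) and Ngp (1.66-fold, 0.0379 to 12) stayed above 1 on these few UMIs, with intervals that span 1.

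The other 4 of the 10 highest were Nrgn (5.62-fold, 2.93 to 10.3, in 7 of 20 cells), Tubb5 (4.11-fold, with 57.8% of its UMIs in 1 cell), AY036118 (3.95-fold, 3.12 to 4.97) and Hmgn2 (3.91-fold, 1.99 to 7.20). Nrgn encodes neurogranin, a calmodulin-binding protein, and in steady state it had 39 UMIs in 23 cDC2-A cells and 1 in T cells. AY036118 was 6.09-fold higher in T cells as well, and it overlaps Gm42418 on the other strand of chromosome 17 (39847113 to 39848035). Whether this overlap touched its counts was not tested. Stmn1, a cell-cycle gene, stood at 3.46-fold, with 88.0% of its UMIs in 1 cell.

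Of the 10 lowest ratios, 9 genes had no UMI in the 20 cells. These were Hspa1b (132 UMIs in steady state, at least 3.21-fold lower), Lbh (at least 2.63-fold), Ccnt2 (2.44-fold), Stx4a (2.26-fold), Ifitm2 (2.22-fold), Cd69 (2.14-fold), Rps6ka3 (2.09-fold), Apoe (2.07-fold) and Eif3j1 (2.05-fold). Their steady-state UMIs lay in 24 of 214 cells for Hspa1b, 22 for Ifitm2 and 12 for Apoe, and in 55 to 82 for the others. The bounds do not cover this spread among cells, so 20 cells without a UMI of the first 3 say little. Vps37b, a sorting protein, had 1 UMI against 226 (ratio 0.0606, 0.00153 to 0.341) and stood at 0.276-fold in T cells. In T cells Ifitm2 (0.0804-fold, 0.00202 to 0.459) and Apoe (no UMI against 66, at least 2.94-fold lower) were at least 2-fold lower too, and Cd69 stood at 0.516-fold (0.277 to 0.886). Hspa1b (0.187-fold, 0.00462 to 1.10, with under 50 UMIs), Lbh (0.671-fold), Ccnt2 (0.739-fold) and Stx4a (1.31-fold) had intervals in T cells that span 1. At 62728 UMIs in 20 cells, single genes of low level were near the limit of what could be seen, as the floor of 47.8 CPM shows.

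**Figure D5:**
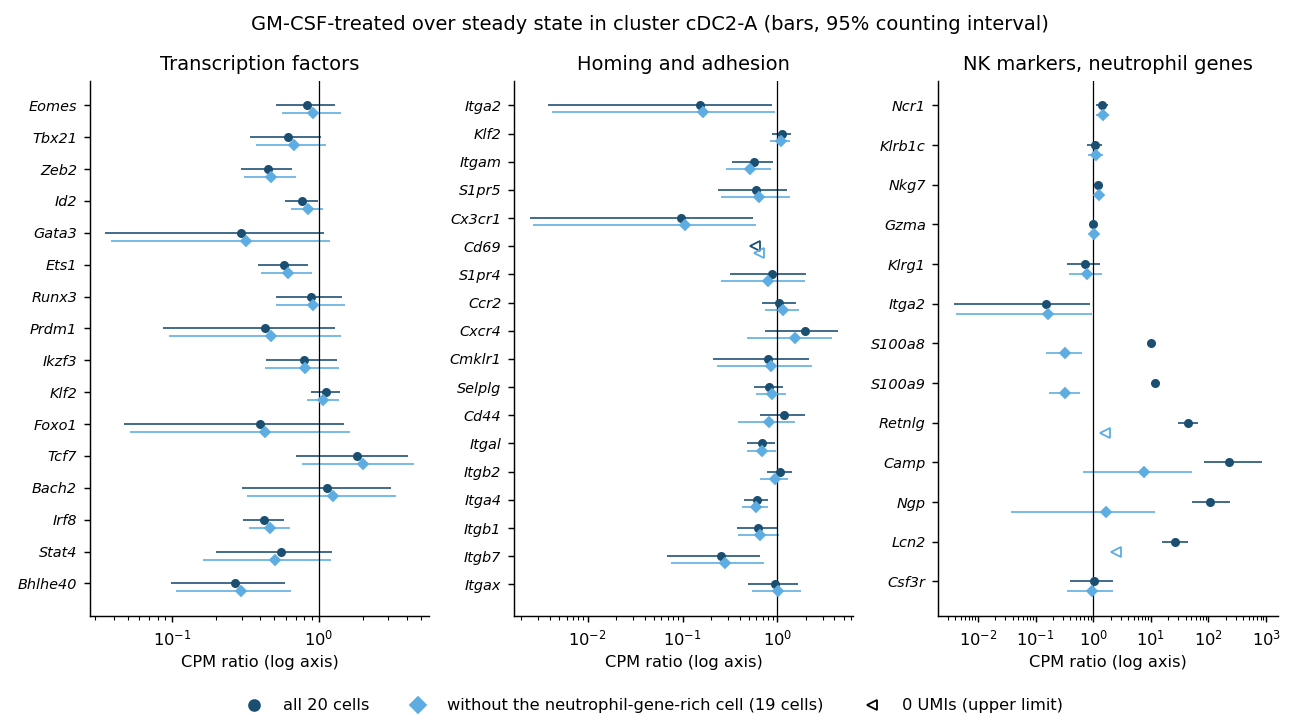
Ratio of CPM (x axis, log scale) of the GM-CSF-treated library over steady state in cDC2-A for transcription factors, homing genes (2 of those compared are not shown), NK markers and neutrophil genes (y axis), for all 20 cells and for the 19 cells without the one rich in neutrophil genes, with exact 95% counting intervals as lines and an open triangle where the treated cells had no UMI. NK markers lie near 1 except Itga2, Irf8 and Zeb2 lie below 1, and S100a8 and S100a9 pass from above 1 with 20 cells to below 1 with 19 cells, where Retnlg and Lcn2 have no UMI.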

How the data were processed

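The data came from CITE-seq of 1 steady-state and 1 GM-CSF-treated library of sorted CD11b+ splenocytes. Per the labels and methods, the authors mapped reads to mm10 with Cell Ranger 3.0.2, counted tags with CITE-seq-Count and clustered cells in Seurat 3.6.0 after integrating the libraries. The unit of the deposited RNA and tag matrices is the raw count. The mitochondrial share was deposited in percent. Clusters are the labels of the authors. The libraries held 22358903 and 35007567 UMIs, which limits precision as the intervals state.

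UMIs were added up over all cells of a cluster and scaled to their total (CPM). Intervals are exact (Poisson, conditional binomial for ratios, Clopper-Pearson for shares) at 95%. Genes with at least 50 UMIs over both groups were called past 2-fold with 0.5 counts added to each sum. This rule was tried on simulated sums that held counting error only. The simulation had no spread among cells, so it does not show how the rule fares where few cells hold most UMIs of a gene. Cells were thinned to 1000 UMIs (seed 20), leaving out shallower ones (2 steady-state cells of cDC2-A). Doublets were called per library by Scrublet in scanpy 1.11.5. No test was made.

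Members and gene lists were chosen with earlier results of these data known. Named are genes of 29 lists, of which 301 of 306 genes were in the table, with the genes of highest CPM, the 15 genes most specific to the cluster, the 10 highest and 10 lowest ratios between libraries and the 15 most variable genes. The set of 4 promoters was chosen after the values were seen. A few list genes are counted but not reported here by name. Cell-cycle phases were not used, since the deposited ones cover other clusters. Sequences are from RefSeq (GRCm38.p6), coordinates from GENCODE (GRCm38). Python 3.11.15, scipy 1.17.1, numpy 2.4.6 and pandas 2.3.3 were used. Alternatives covered the minimum of UMIs, added counts, totals, depth, weights, doublets, the mitochondrial limit and the cells counted.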

Additional observations from a re-analysis of the deposited data

How the results depend on the processing

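No paired analysis was possible because each condition had 1 library. The ratio of the NK markers to all other cells (69.9) became 134 with cells thinned and 137 with each cell given equal weight. It became 72.2 with totals without mitochondrial and ribosomal genes. Without the 27 marker-positive cells of MoMacDC_c4, a setting chosen after seeing the data, the ratio was 782. The ratio of the cDC2 genes to Progenitor DC (0.0529) became 0.0318 without doublets and 0.0394 with equal weights. Genes at least 2-fold higher than in T cells (542) numbered 939 at a minimum of 20 UMIs, 307 at 100, 2449 at 1, 176 after thinning and 351 with the other totals. Between the libraries, higher genes (108) numbered 472, 27, 3424 and 26, and lower genes (415) 971, 158, 1303 and 67, at minima of 20, 100 and 1 UMIs and after thinning. The share of cDC2-A (4.43 and 0.294%) was 36.6 and 14.5% of T cell, B cell and cDC2-A cells, and 5.05% in steady state for all cells with 3 markers, chosen after seeing the data. Shares with Klrg1 (52.3%), Cd27 (14.5%) and both (5.61%) were 14.6, 3.77 and 0.472% after thinning with Cd27 after GM-CSF, found in 1 cell, at 0. Without the cell rich in neutrophil genes, a setting chosen after seeing the data, Retnlg (0.199), Lcn2 (0.305), S100a9 (0.341) and S100a8 (0.348) turned from above to below 1 with the added counts, the last 2 of them with UMIs left. The other 41 values of this kind stayed within their limits, as did 150 of 189 for single genes. Shares in S or G2/M were not run, as deposited phases cover other clusters. At 20 cells, depth limits every value after GM-CSF.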
